A study of Homo sapiens with 4 samples.

Results

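The 43 genes described here encode the cell-cell junctions and the polarity machinery of epithelial cells, together with the factors that control their splicing, transcription and proteolysis. They form a list given by gene name, drawn up with earlier results of these data known, out of 28278 genes in a table of read counts from bulk RNA-seq. The study compared A549, a human lung adenocarcinoma cell line, in 2 stable lines made with lentiviral constructs: a line labelled Control (2 libraries) and a line labelled OE_CBX7, made to overexpress CBX7 (2 libraries). CBX7 is a chromobox protein of Polycomb repressive complex 1, which binds methylated histone H3 and keeps target genes silent. Both groups therefore carry a lentiviral construct, and no untransduced A549 cells are among the samples. The labels do not say whether either line is a clone or a pool, or whether the 2 libraries of a line were grown as separate cultures. The p-values therefore measure the spread between these libraries alone, which may be technical.

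Epithelial cells are held together by a set of junctions with different jobs. Tight junctions seal the space between neighbours and set which ions pass, through claudin strands anchored on cytoplasmic scaffolds. Adherens junctions join the actin cytoskeletons of neighbours through cadherins and catenins, and desmosomes join their keratin filaments through desmosomal cadherins, plakoglobin, plakophilins and plakins. Polarity complexes such as Crumbs at the apical side and the Scribble module, to which LLGL2 belongs, at the basolateral side mark the 2 surfaces of the cell, and epithelial transcription and splicing factors keep these genes active.

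Levels are given as CPM, which is the count divided by the library's total over tested genes, scaled by edgeR's TMM factor to line up the bulk of genes between libraries, and multiplied by 1000000. Library totals lay between 69877585 and 90765502 counts, and between 19678 and 20379 genes had at least 1 count in a library. CBX7 itself had 689 and 596 counts in the Control libraries and 1783 and 1550 counts in the OE_CBX7 libraries, a log2 fold change of 1.11 with an adjusted p of 0.000141, and SOCS3 had a log2 fold change of -2.13. Keratin genes of simple epithelium stood high, with KRT8 at 6827 and 6982 CPM in the Control libraries. EPCAM, another epithelial marker, was low, at 0.650 and 1.19 CPM in Control and 1.59 and 1.61 CPM in OE_CBX7. CDKN2A, which A549 lacks by deletion, had 0, 5, 0 and 4 counts. Its neighbour MTAP, listed with it as part of the deleted locus, was detected with 651, 439, 779 and 704 counts, so this check was not met in full. Of 9 leukocyte markers, CD3E, CD3D and MS4A1 were at 0 in every library, and THY1 of 8 fibroblast markers and TIE1 of 7 endothelial markers were at 0 as well. The summed leukocyte list stood at 166 to 171 CPM in Control and at 27.1 to 27.6 CPM in OE_CBX7. Most of it was CD68, a lysosomal protein that is not restricted to leukocytes (158 and 165 CPM against 23.6 CPM in both OE_CBX7 libraries), and of the other 2 leukocyte markers tested ITGAM fell (log2 fold change -2.70) and CD14 rose (1.10, a call lost when any single library was left out, with adjusted p from 0.0544 to 0.213). The summed fibroblast list stood at 5.71 to 8.28 and 8.05 to 8.91 CPM, with 0 of 5 tested genes called by edgeR or DESeq2, 1 called lower by limma-voom and 1 at an unadjusted p under 0.05. The summed endothelial list stood at 1.03 to 1.65 and 3.54 to 3.88 CPM, with CDH5 the single gene called (log2 fold change 1.73). A list of 15 interferon-stimulated genes also moved with the groups, from 11631 to 12921 CPM in Control to 378 to 433 in OE_CBX7. The part of these differences in the results below was not tested.

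A gene was called when edgeR's quasi-likelihood test gave a Benjamini-Hochberg adjusted p under 0.05 over the 17271 genes with enough counts to test. Fold changes are OE_CBX7 over Control on the log2 scale, with the standard error (SE), and n was 2 libraries a group throughout. With so few libraries, groups can fail to overlap without any change, and the share of all tested genes that did so was not computed. Because these are bulk libraries, fewer cells with a transcript and less of it per cell cannot be told apart.

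The genes of the list did not move one way. Of the 43 genes, 39 had enough counts to be tested, and 14 of these were called, which is 35.9% against 24.4% of all tested genes. Because of how the list was drawn up, these shares are a description of it and not independent evidence. There were 11 that rose, or 28.2% against 10.5% of all tested genes, and 3 that fell, or 7.69% against 13.9%. JUP, LLGL2, TJP3 and CRB3 rose at least 2-fold, where 2.11% of all tested genes did so, and CLDN1 fell at least 2-fold, where 5.36% of all tested genes did so. The 39 genes had a median log2 fold change of 0.29, with a range from -1.62 to 1.31, beside a median of -0.00015 over all tested genes, and 27 of the 39 had a positive value. The share of calls depends on level, since 32.2% of the tested genes above the median level of 16.6 CPM were called against 16.5% of those at or below it. Of the 39 tested genes of the list, 21 lay above that level, with 11 called, and 18 lay at or below it, with 3 called. Scaling by library totals in place of TMM moved the share of all calls that were higher from 43% to 55%. It gave 13 genes of the list higher and 3 lower.

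**Figure D1:**
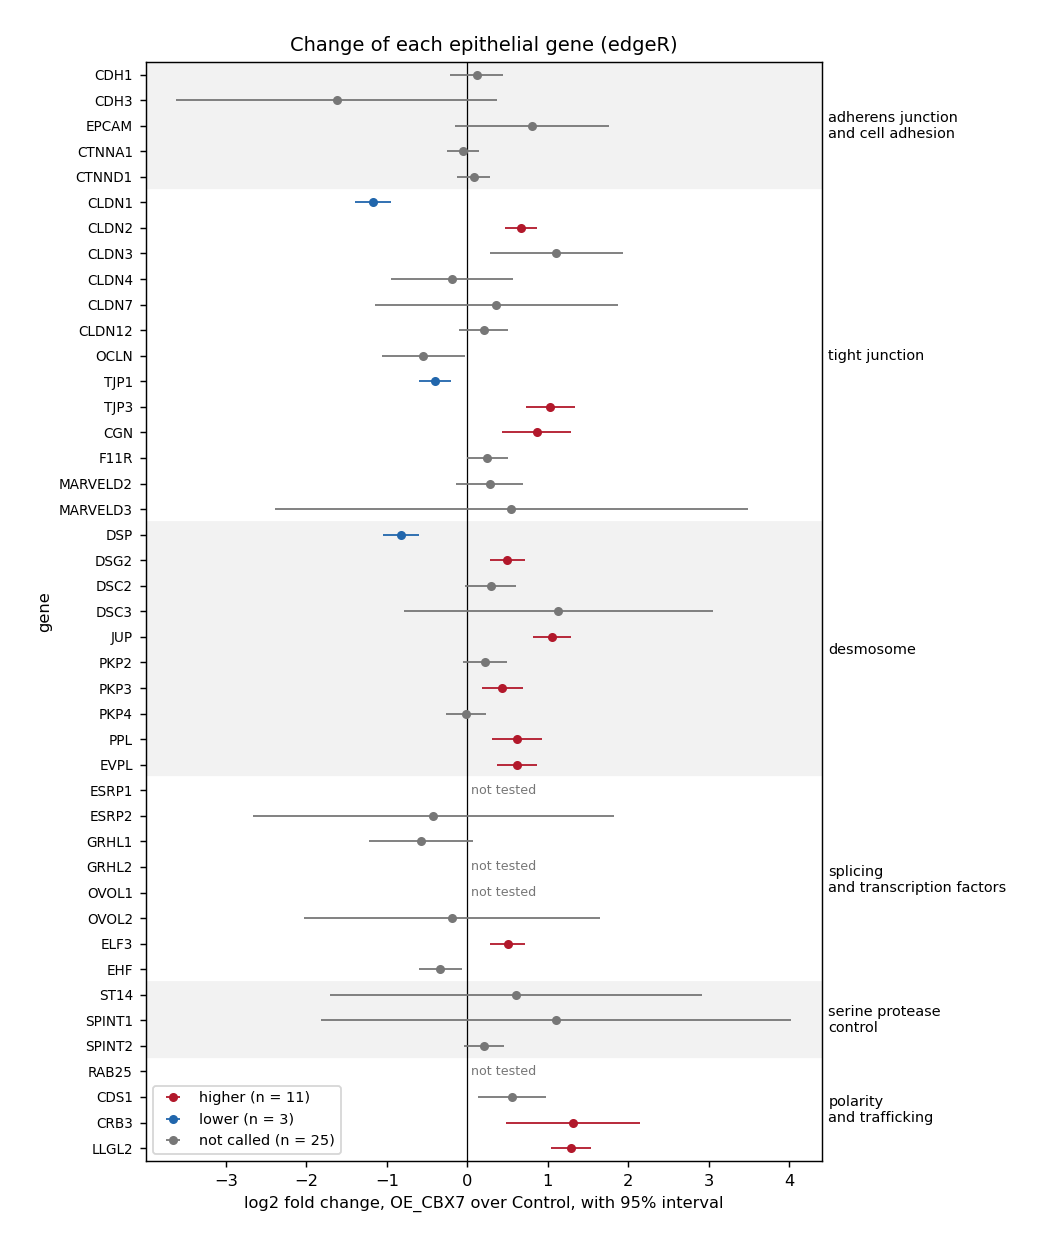
Log2 fold change (OE_CBX7 over Control, horizontal axis) of each of the 43 genes, with its 95% interval from edgeR, in rows grouped by role. The 11 red points are genes called higher, the 3 blue points genes called lower and the grey points 25 genes not called, and the 4 genes without enough counts are marked as not tested.

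In the tight junction the main claudin changed over. CLDN1, a sealing claudin, fell, while CLDN2, which forms a pore for small cations and water, rose. TJP3 and CGN, both cytoplasmic plaque proteins, rose as well, and TJP1, the main zonula occludens scaffold, fell. The other 8 of the 13 tested tight junction genes were not called, and the median log2 fold change of the 13 was 0.28. The share called was 38.5%, against 24.4% of all tested genes. The share higher was 23.1%, against 10.5%, and the share lower was 15.4%, near the 13.9% of all tested genes.

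CLDN1 stood at 316 and 267 CPM in the Control libraries and at 132 and 127 CPM in the OE_CBX7 libraries. The groups lay far apart, and the level was 2.25-fold lower in OE_CBX7 (log2 fold change -1.17, SE 0.103, adjusted p = 1.61e-06). CLDN2 stood at 154 and 149 CPM in Control and at 238 and 245 CPM in OE_CBX7. Its replicates differed by only a few CPM, and the level was 1.59-fold higher in OE_CBX7 (log2 fold change 0.67, SE 0.0925, adjusted p = 0.000123). Within a library, where no scaling enters, CLDN2 had 0.487 and 0.559 counts for each CLDN1 count in Control and 1.81 and 1.92 in OE_CBX7, so the ratio was 3.57-fold higher and the more abundant of the pair by count changed. Over all 24 claudin genes in the table, CLDN1 held 58.9% and 56.8% of the counts in Control and 30.9% and 29.4% in OE_CBX7. CLDN2 held 28.7% and 31.8% in Control and 55.8% and 56.6% in OE_CBX7. Both claudins kept their calls under every alternative processing tried.

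**Figure D2:**
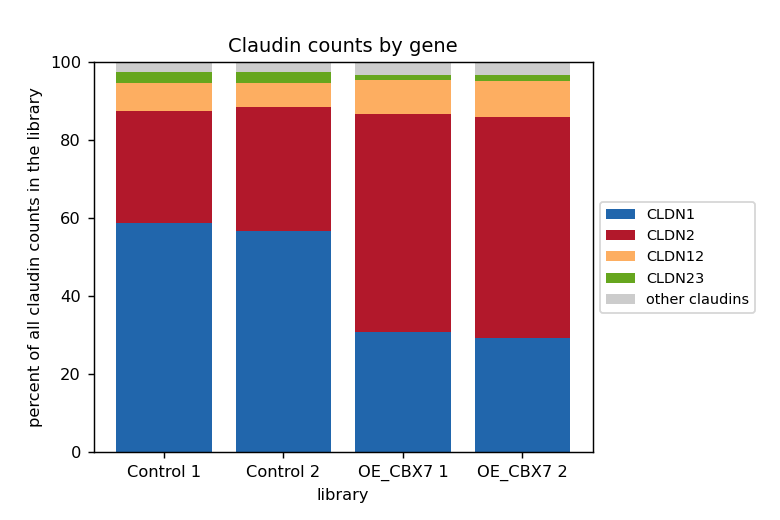
Share of all claudin counts (percent, vertical axis) held by each claudin gene in each of the 4 libraries (horizontal axis). CLDN1 holds 58.9% and 56.8% of the Control bars and 30.9% and 29.4% of the OE_CBX7 bars, and CLDN2 makes the opposite shift.

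The 2 claudins that moved apart have unlike sequence upstream of their first RefSeq start. The stretches printed here lie just upstream of the first RefSeq start of each gene (GRCh38.p14) and outside the exons of protein-coding genes, and they are given 5′ to 3′ on the gene's strand to show that contrast. CLDN1 (chr3:190322476-190322696, minus strand) and CLDN2 (chrX:106899914-106900062, plus strand) read as follows.
CLDN1: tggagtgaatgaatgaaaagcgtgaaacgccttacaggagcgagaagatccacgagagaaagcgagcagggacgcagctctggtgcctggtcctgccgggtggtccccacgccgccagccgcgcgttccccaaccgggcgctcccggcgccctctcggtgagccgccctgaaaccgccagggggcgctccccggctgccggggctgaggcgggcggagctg
CLDN2: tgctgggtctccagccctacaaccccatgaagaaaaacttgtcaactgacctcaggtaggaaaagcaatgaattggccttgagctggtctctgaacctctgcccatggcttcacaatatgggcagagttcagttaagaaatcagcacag
The CLDN1 stretch holds 24 CpG sites in 221 bases, at 69.7% G and C. The CLDN2 stretch holds 0 CpG sites in 149 bases, at 48.3% G and C. Over the full 250 bases upstream the counts are 28 and 0 CpG sites, where the median over all 27305 promoters in the RefSeq table is 11. Neither upstream window holds CACCTG on either strand, the E-box read by ZEB and SNAIL repressors. Of the 7 genes called higher with a promoter in that table, CLDN2 had the fewest CpG sites and CGN the most, at 32. A link between CpG content and direction was not tested. These are descriptions of the reference sequence, and no binding, methylation or start site in these cells was measured.

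Among the scaffolds, TJP1 stood at 301 and 275 CPM in Control and at 223 and 213 CPM in OE_CBX7. The groups did not overlap and the gene fell (log2 fold change -0.40, SE 0.0937, adjusted p = 0.00682), but the call was lost without Control 1 (adjusted p = 0.0505) and without OE_CBX7 2 (0.0717). TJP3, a related scaffold of the same family, stood at 10.6 and 11 CPM in Control and at 21.6 and 22.6 CPM in OE_CBX7. Its level was 2.04-fold higher (log2 fold change 1.03, SE 0.143, adjusted p = 0.000129), so the members of this scaffold family moved in opposite directions. TJP3 had 0.0351 and 0.0402 counts for each TJP1 count in Control and 0.0968 and 0.106 in OE_CBX7, so TJP1 still had more counts in every library. CGN, cingulin, which ties the plaque to actomyosin, stood at 5.16 and 6.27 CPM in Control and at 11.2 and 9.59 CPM in OE_CBX7 (log2 fold change 0.86, SE 0.199, adjusted p = 0.00626). That call was lost without OE_CBX7 1 (adjusted p = 0.0678).

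The transmembrane proteins around the claudin strands were not called. OCLN, occludin, stood at 12.3 and 6.99 CPM in Control and at 6.60 CPM in both OE_CBX7 libraries. The Control libraries differed from each other more than Control 2 did from OE_CBX7, and the log2 fold change of -0.55 had an adjusted p of 0.12. Without Control 2 the adjusted p for OCLN was 0.0137, and without Control 1 the log2 fold change was -0.08 (adjusted p = 0.856). F11R, a junctional adhesion molecule, stood at 48.6 and 57.8 CPM in Control and at 64.0 and 62.5 CPM in OE_CBX7 (log2 fold change 0.25, adjusted p = 0.140, and 0.0417 without Control 2). MARVELD2, tricellulin, which sits where 3 cells meet, stood at 7.29 and 6.32 CPM in Control and at 8.14 and 8.37 CPM in OE_CBX7 (log2 fold change 0.28, adjusted p = 0.341). MARVELD3 was close to the detection limit, with 0, 35, 32 and 36 counts, and could not be compared usefully, since its log2 fold change ran from -0.47 to 8.07 as single libraries were left out and the gene was called without Control 2 (adjusted p = 0.0429).

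The remaining claudins of the list were low or steady within their spread. CLDN12 stood at 38.6 and 29 CPM in Control and at 37.4 and 40.5 CPM in OE_CBX7, and the groups overlapped (log2 fold change 0.20, adjusted p = 0.331, and 0.0446 without Control 1). CLDN3 stood at 0.929 and 1.35 CPM in Control and at 1.94 and 2.95 CPM in OE_CBX7. The groups did not overlap, and the log2 fold change of 1.11 just missed the threshold (adjusted p = 0.0515). CLDN3 was called under 5 of the alternatives, with adjusted p between 0.0377 and 0.0472. CLDN4, at 2.97 and 1.76 CPM in Control and 2.29 and 1.86 CPM in OE_CBX7, and CLDN7 overlapped between groups, with adjusted p of 0.759 and 0.775.

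In the desmosome 5 genes were higher, 1 was lower and 4 were not called of 10 tested, with a median log2 fold change of 0.47. The share called was 60%, against 24.4% of all tested genes, and the share higher was 50%, against 10.5%. JUP, PPL, EVPL, DSG2 and PKP3 rose. DSP, desmoplakin, the plakin that connects the desmosomal plaque to keratin filaments, fell. Of 4 epithelial keratins tested, 1 was called lower, or 25% against 13.9% of all tested genes, and 3 were not called. The log2 fold changes of the 4 had a median of -0.17 and ran from -0.67 to 0.006, with 1 positive value. KRT7 was called lower (log2 fold change -0.29, adjusted p = 0.0342), a call lost with library totals (0.0812). The KRT7 call was also lost when any single library was left out, with log2 fold changes from -0.33 to -0.24.

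JUP, plakoglobin, which binds the tails of both desmosomal and classical cadherins, stood at 182 and 224 CPM in Control and at 409 and 435 CPM in OE_CBX7. Its level was 2.08-fold higher (log2 fold change 1.06, SE 0.109, adjusted p = 8.12e-06). DSP stood at 413 and 362 CPM in Control and at 234 and 205 CPM in OE_CBX7. Its level was 1.77-fold lower (log2 fold change -0.82, SE 0.104, adjusted p = 6.06e-05). No Control library overlapped an OE_CBX7 library for either gene. JUP had 0.441 and 0.618 counts for each DSP count in Control and 1.75 and 2.12 in OE_CBX7, a ratio 3.65-fold higher.

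DSG2, the desmosomal cadherin with the highest level per kilobase here, stood at 176 and 157 CPM in Control and at 247 and 223 CPM in OE_CBX7 (log2 fold change 0.50, SE 0.101, adjusted p = 0.00272). DSC2, a desmosomal cadherin that partners DSG2, did not overlap between groups but was not called, at 20.9 and 16.7 CPM in Control and 24.2 and 21.8 CPM in OE_CBX7 (log2 fold change 0.29, adjusted p = 0.181, and 0.0475 without Control 1). DSC3 was near the detection limit with 15, 17, 40 and 45 counts (adjusted p = 0.409). Of the plakophilins, which cluster the cadherins with desmoplakin, PKP3 stood at 38.3 and 35.1 CPM in Control and at 52.9 and 46.6 CPM in OE_CBX7 (log2 fold change 0.44, SE 0.119, adjusted p = 0.0162). The PKP3 call was lost without Control 2 (adjusted p = 0.0671) and without OE_CBX7 1 (0.214). PKP2 stood at 25.5 and 22.3 CPM in Control and at 26.9 and 29 CPM in OE_CBX7, with no overlap and no call (log2 fold change 0.22, adjusted p = 0.233). PKP4, which is also found at adherens junctions, overlapped between groups (log2 fold change -0.01, adjusted p = 0.959). The plakins PPL, periplakin, and EVPL, envoplakin, which pair with each other in the cornified envelope of skin, rose by like amounts. PPL stood at 16.1 and 13.5 CPM in Control and at 22.2 and 23.3 CPM in OE_CBX7 (log2 fold change 0.62, SE 0.144, adjusted p = 0.00663). EVPL stood at 28.7 and 30.0 CPM in Control and at 46.0 and 44.1 CPM in OE_CBX7 (log2 fold change 0.62, SE 0.116, adjusted p = 0.00154).

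**Figure D3:**
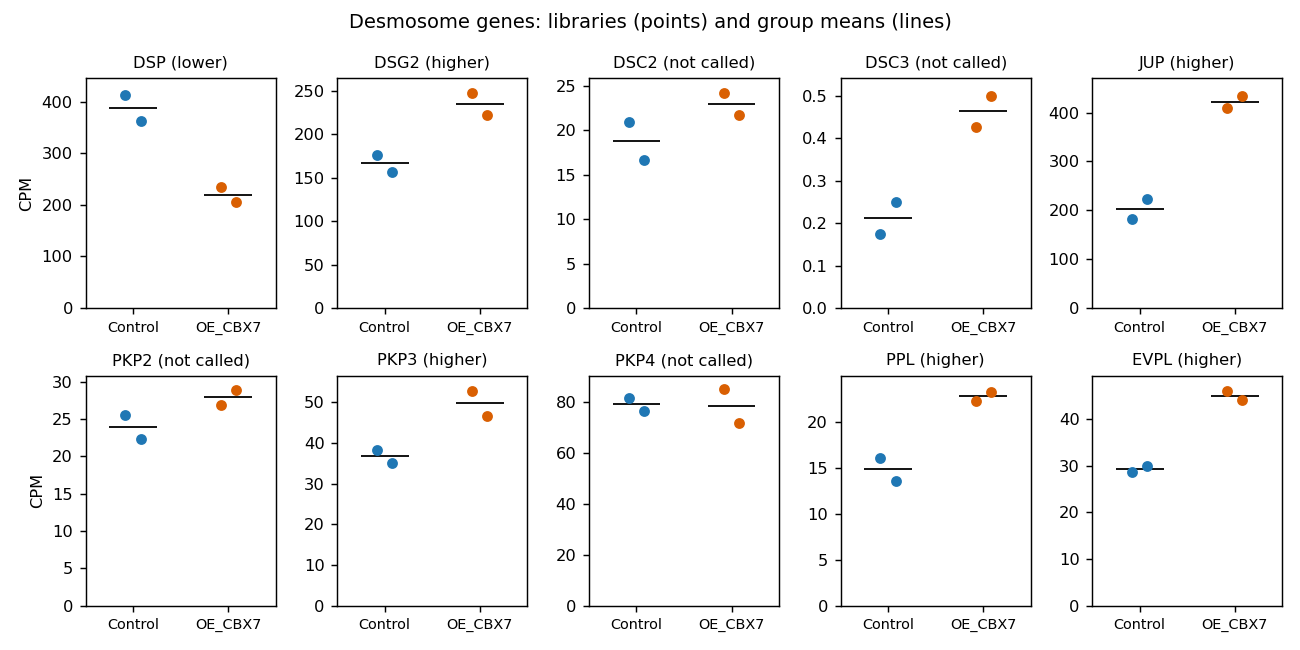
Level (CPM, vertical axis from 0) of the 10 desmosome genes in the Control and OE_CBX7 libraries (points) with the group mean (line). JUP goes from 182 and 224 CPM to 409 and 435 CPM while DSP falls from 413 and 362 CPM to 234 and 205 CPM.

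DSP and DSG2 moved in opposite directions, and the upstream sequence of each holds an E-box, so these are shown as the contrasting pair. The stretches lie on the plus strand of GRCh38.p14 at chr6:7541421-7541574 and chr18:31497927-31498042. They too are the longest run outside the exons of protein-coding transcripts in the 250 bases upstream of the first RefSeq start. Part of each window is therefore annotated as exon. The E-box is in capitals (CAGGTG, which is CACCTG on the other strand).
DSP: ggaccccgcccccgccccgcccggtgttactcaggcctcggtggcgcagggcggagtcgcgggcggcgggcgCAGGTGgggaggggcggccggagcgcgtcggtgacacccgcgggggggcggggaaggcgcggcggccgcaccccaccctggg
DSG2: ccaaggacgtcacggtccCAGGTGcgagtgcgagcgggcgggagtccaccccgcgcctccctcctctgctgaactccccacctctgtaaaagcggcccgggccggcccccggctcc
Each printed stretch holds 1 E-box, and each full window of 250 bases upstream holds 2. Both are rich in CpG, with 33 sites in the DSP window and 26 in the DSG2 window. The pair was chosen for holding the motif and moving apart, so the motif's presence upstream of both carries no information on direction. No binding was measured.

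Polarity genes gave the largest rises on the list. Of 3 polarity and trafficking genes tested, 2 were called, both higher, or 66.7% against 10.5% of all tested genes. LLGL2, a basolateral polarity protein of the Scribble module, stood at 36.0 and 40.9 CPM in Control and at 96.6 and 90.9 CPM in OE_CBX7. The libraries of the groups were far apart, and the level was 2.44-fold higher (log2 fold change 1.29, SE 0.114, adjusted p = 1.71e-06). CRB3, the small apical Crumbs protein, stood at 0.790 and 1.28 CPM in Control and at 2.99 and 2.13 CPM in OE_CBX7 (log2 fold change 1.31, SE 0.390, adjusted p = 0.0250). CRB3 was low in all libraries and its call was lost without Control 1 (adjusted p = 0.136) and without OE_CBX7 1 (0.203). CDS1, which makes CDP-diacylglycerol for phosphoinositide synthesis, stood at 5.81 and 5.45 CPM in Control and at 8.43 and 8.15 CPM in OE_CBX7. Its groups did not overlap, and its log2 fold change of 0.56 had a 95% interval from 0.13 to 0.98 and an adjusted p of 0.0544, under the threshold with library totals (0.0323) and with a stricter count filter (0.0395). RAB25, a small GTPase of apical recycling, had 0 counts in every library, which at 3 counts allows up to 0.0320 to 0.0440 CPM, with counting error only considered.

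None of the 5 adherens junction and adhesion genes was called by edgeR, DESeq2 or limma-voom, where edgeR called 24.4% of all tested genes. With so few genes, 0 calls does not set this junction type apart from that share. An unadjusted p under 0.05 was found for 0 of the 5, a share not computed over all tested genes. CDH1, E-cadherin, stood at 50.2 and 34.6 CPM in Control and at 44.6 and 47.3 CPM in OE_CBX7. The OE_CBX7 libraries lay between the Control libraries, and the log2 fold change of 0.11 had a 95% interval from -0.22 to 0.45 (adjusted p = 0.657). Without Control 1 the value was 0.41 and CDH1 was called (adjusted p = 0.0426). CTNNA1, the catenin that binds actin, stood at 457 and 464 CPM in Control and at 448 and 439 CPM in OE_CBX7, with an interval of the log2 fold change from -0.25 to 0.15. CTNND1, the catenin that holds cadherins at the membrane, stood at 359 and 382 CPM in Control and at 401 and 382 CPM in OE_CBX7, with an interval from -0.12 to 0.28. Against the spread between these libraries alone, the data leave room for only small differences in the abundant catenins. The CTNND1 value also depends on the split of reads with a read-through gene, given below. CDH3, P-cadherin, at 0.314 and 0.880 CPM in Control and 0.107 and 0.277 CPM in OE_CBX7, and EPCAM, at 0.650 and 1.19 CPM in Control and 1.59 and 1.61 CPM in OE_CBX7, were low, and their intervals were wide (-3.61 to 0.37 and -0.15 to 1.75).

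Among the splicing and transcription factors, ELF3, an epithelial ETS factor, was the single gene called of 5 tested, or 20% against 24.4% of all tested genes. It stood at 241 and 285 CPM in Control and at 366 and 378 CPM in OE_CBX7 (log2 fold change 0.50, SE 0.102, adjusted p = 0.0027). EHF, a closely related ETS factor, stood at 26.7 and 27.4 CPM in Control and at 21.3 and 21.6 CPM in OE_CBX7. EHF had tight replicates and no overlap, a log2 fold change of -0.33 with an interval from -0.60 to -0.07, and an adjusted p of 0.0656, which was 0.0471 with the stricter count filter. Of the grainyhead, OVO-like and ESRP genes that maintain epithelial identity, all but GRHL1 were barely detected. ESRP1 had 16, 2, 0 and 0 counts, GRHL2 had 7, 0, 10 and 0, and OVOL1 had 0, 0, 6 and 0, so none was tested. ESRP2 (15, 24, 23 and 13 counts) and OVOL2 (43, 19, 38 and 25 counts) were tested and overlapped between groups. GRHL1 stood at 5.67 and 3.33 CPM in Control and at 2.67 and 3.37 CPM in OE_CBX7 (log2 fold change -0.58, adjusted p = 0.193), and the value ran from -0.90 to -0.14 as single libraries were left out.

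Of the serine protease genes, 0 of 3 were called by edgeR, DESeq2 or limma-voom, where edgeR called 24.4% of all tested genes. With so few genes this does not differ usefully from that share. An unadjusted p under 0.05 was found for 0 of the 3. SPINT2, a Kunitz inhibitor of membrane serine proteases, was abundant at 319 and 406 CPM in Control and 401 and 439 CPM in OE_CBX7 and overlapped between groups (log2 fold change 0.21, interval -0.04 to 0.46, and adjusted p = 0.0309 without Control 2). ST14, the protease matriptase, had 18, 7, 26 and 18 counts, and SPINT1, its inhibitor, had 0, 21, 38 and 22. At that depth no difference was detectable for either.

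**Figure D4:**
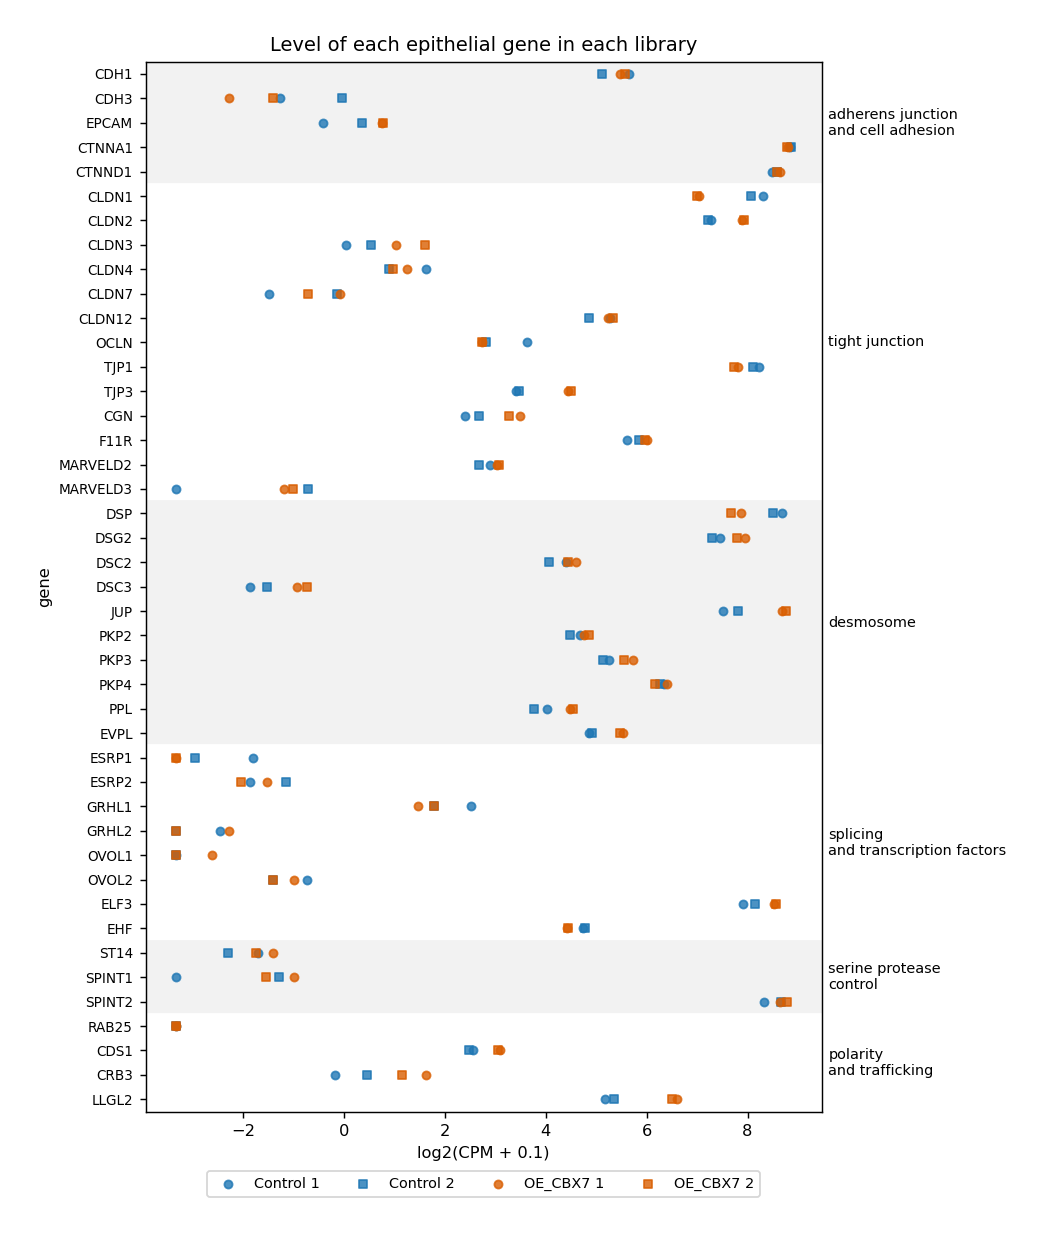
Level of each of the 43 genes in each library, as log2(CPM + 0.1) on the horizontal axis, with circles for replicate 1 and squares for replicate 2 of Control (blue) and OE_CBX7 (orange), in rows grouped by role. Points of a gene at the far left edge are libraries with 0 counts, such as RAB25 in every library.

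Levels between genes can be compared only per length. In CPM per kilobase of merged exons (GENCODE 29), CLDN1 had the highest mean of the 43 genes in Control, at 79.6, and ranked 8 in OE_CBX7, at 35.3. JUP moved from rank 6 in Control, at 41.1, to rank 1 in OE_CBX7, at 85.3. SPINT2 held rank 2 in both groups, at 69.7 and 80.8, CLDN2 went from rank 4 to rank 3, at 44.5 and 70.8, and DSP went from rank 7 to rank 9, at 38.4 and 21.7. By this measure CDH1, at 6.86 and 7.43, ranked 14 and 15, well below its catenins CTNNA1 (52.2 and 50.2) and CTNND1 (42.1 and 44.5).

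Some of the genes lie next to each other in the genome. CDH3 and CDH1 on chromosome 16 lie 3.5 kb apart, DSC3 and DSC2 on chromosome 18 lie 16.1 kb apart, MARVELD2 and OCLN on chromosome 5 lie 48.2 kb apart, and CLDN3 and CLDN4 on chromosome 7 lie 60.7 kb apart. None of these 8 neighbours was called, where 24.4% of all tested genes were. Most of the 8 were low, and of tested genes at or below the median level 16.5% were called. A link between position and calls was not tested. No called gene lay within 200 kb of another of the 43, for example CLDN1 at chr3:190305707-190322446, JUP at chr17:41754609-41786711 and LLGL2 at chr17:75525002-75575209 (GRCh38). Some exons overlap other genes in GENCODE 29, and the strand handling of the counts is not given in the sources used here. CTNND1 shares 3.6% of its exon bases with the read-through gene TMX2-CTNND1, which held 1641, 0, 1264 and 1396 counts of its own, so the split of reads between them is uncertain. CLDN2 shares 10.0% of its exon bases with RIPPLY1 on the other strand, which had 0, 8, 6 and 17 counts. ELF3 shares 9.2% with the antisense gene ELF3-AS1, which had 224, 308, 346 and 492. MARVELD3 shares 16.6% with PHLPP2 on the other strand (2620, 1972, 2899 and 2262 counts). OVOL2 shares 2.7% with SNX5 on the same strand (21548, 17045, 20422 and 21465). ESRP2 shares 2.7% with NFATC3 on the other strand (6320, 4775, 4284 and 4002). Whether the few counts of MARVELD3, OVOL2 and ESRP2 include reads of these genes was not tested. F11R shares 36.6% with AL591806.3, which has no row of counts.

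The RefSeq promoter table matched 25 of the 43 genes. In the 250 bases before the start, CACCTG was found on either strand in 9 of the 25, or 36.0%, against 17.5% of all 27305 promoters. The 9 were 3 of 7 genes called higher, 2 of 3 called lower, 3 of 14 not called and 1 that was not tested, and CRB3 alone held 5 copies. Promoters of the list were also richer in G and C, with a median of 66% against 58.0%, and held a median of 19 CpG sites against 11. The grainyhead core AACNNGTT was found in 4.0% of the 25 against 3.0% of all, TGANTCA of AP-1 in 8.0% against 6.6%, TTCNNNGAA of STAT factors in 8.0% against 6.8%, and CCGGAA of ETS factors in 8.0% against 14.8%. A match is a run of letters and not a measured site.

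Among regulators outside the list, the ZEB repressors of epithelial genes were lower and several lung and gut epithelial transcription factors were higher. Of 7 repressors, 2 fell, or 28.6% against 13.9% of all tested genes, and 5 were not called. ZEB2 stood at 10.4 and 6.42 CPM in Control and at 0.470 and 0.588 CPM in OE_CBX7 (log2 fold change -3.99, adjusted p = 6.32e-07). ZEB1 stood at 52.3 and 40.4 CPM in Control and at 29.8 and 32.0 CPM in OE_CBX7 (log2 fold change -0.59, adjusted p = 0.00636, and 0.0604 without Control 1). Of 11 other epithelial transcription factors tested, 6 rose, or 54.5% against 10.5% of all tested genes, and 5 were not called. DESeq2 and limma-voom each called 5 higher. SPDEF stood at 1.18 and 2.45 CPM in Control and at 14.8 and 13.3 CPM in OE_CBX7 (log2 fold change 2.96, adjusted p = 1.32e-05). FOXA1 had a log2 fold change of 1.21 (adjusted p = 6.81e-05) and HNF4A one of 0.87 (adjusted p = 0.00019). The other 3, NKX2-1, CEBPA and TFCP2L1, lost their calls without Control 1 (adjusted p from 0.0817 to 0.156) and without OE_CBX7 1 (0.116 to 0.215). NKX2-1 also lost its call without Control 2 (0.0556), without OE_CBX7 2 (0.102), with the replicate block (0.0661), by DESeq2 (0.0703) and by limma-voom (0.057). The mesenchymal markers were mixed, with FN1 higher (0.72) and VIM (-0.40) and ACTA2 (-1.04) lower of 7 tested. That is 42.9% called, against 24.4% of all tested genes. These lists too were drawn up with earlier results of these data known, so the shares only describe them.

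Other junction genes, outside the 43, were also mixed by type, and several of these lists had a share of calls near or below the 24.4% of all tested genes. The shares called were 36.4% for other adherens junction genes, 21.1% for other tight junction genes and 18.2% for polarity complex genes. They were 11.1% for the gap junction list, 33.3% for hemidesmosome genes and 25% for the protease cascade. For other desmosome genes the share was 50%, with only 2 of 6 listed genes tested. Of 11 other adherens junction genes tested, 2 rose and 2 fell, with CDH17, a liver and intestine cadherin, from 86.2 and 84.0 CPM to 158 and 163 CPM (log2 fold change 0.91), NECTIN1 at 0.73 and NECTIN2 at -0.62. The NECTIN1 call was lost without Control 1 (adjusted p = 0.0671), and that of PLEKHA7, the fourth of these genes and lower, was lost with library totals (0.0841), by limma-voom (0.05) and without Control 2 or either OE_CBX7 library (0.148 to 0.221). Of 19 other tight junction genes, 3 rose and 1 fell, with CGNL1, the paralog of CGN, at 1.19, MAGI3 at 0.42 and CLDN23 at -1.40. The calls of MAGI3 and of MAGI1, the remaining gene that rose, were lost without Control 2, without OE_CBX7 1 and without OE_CBX7 2 (adjusted p from 0.0674 to 0.249). Of the 2 other desmosome genes tested, PERP, a desmosomal membrane protein, was called higher (0.29). DESeq2 called 2 genes of that list higher and limma-voom 1. The PERP call held only with both Control 1 and each OE_CBX7 library in the fit. Without one of these its log2 fold change ran from 0.23 to 0.34. Of 22 other polarity complex genes, 3 rose and 1 fell, with LIN7A at 1.65, PATJ, which binds the Crumbs complex, at 0.65 and PARD6B at -1.06, while the call of DLG1, the remaining gene that rose, was lost without Control 2 (adjusted p = 0.0594). Of 9 tested genes of the gap junction list, the single gene called was PANX1 (-0.49), a pannexin and not a connexin. That call was lost without Control 1, OE_CBX7 1 or OE_CBX7 2, with log2 fold changes from -0.55 to -0.40. Of 6 hemidesmosome genes, COL17A1 was lower (-1.43) and DST higher (0.31), the latter lost without Control 2 (adjusted p = 0.160) and without OE_CBX7 1 (0.310). In the protease cascade, the receptors F2RL1 (-1.02) and MET (-0.82) were lower and 6 of 8 tested genes were not called.

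**Figure D5:**
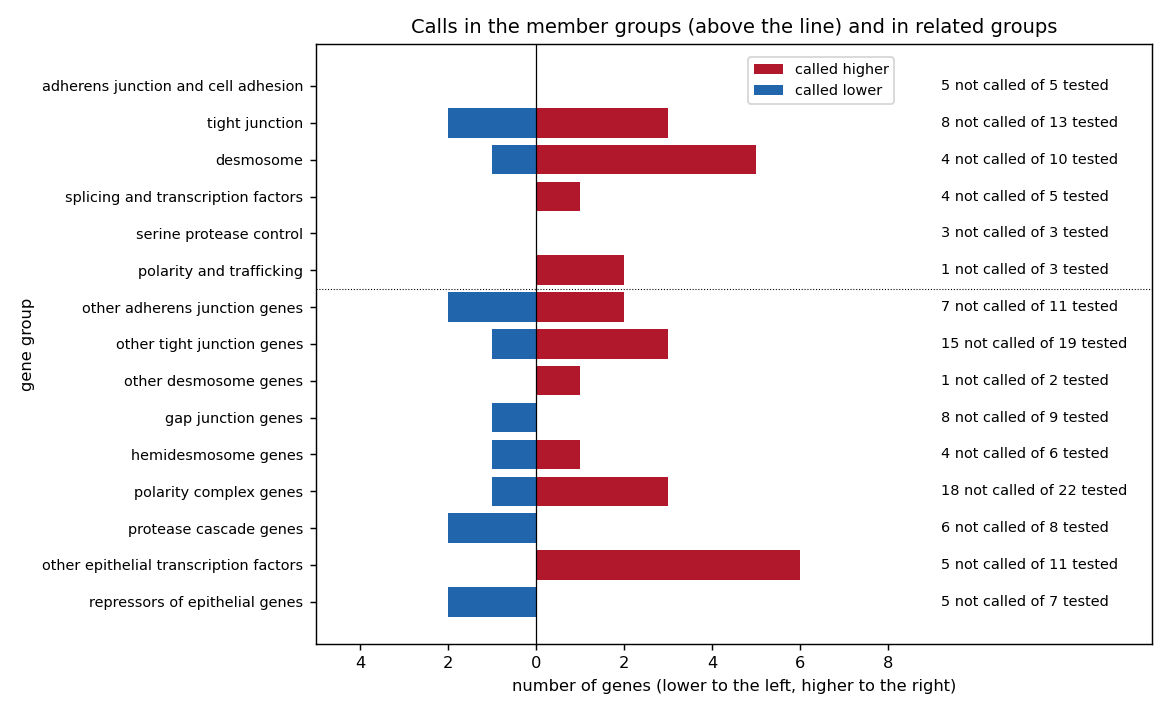
Number of genes called lower (blue bars, to the left of 0) and higher (red bars, to the right) in each role group of the 43 genes, above the dotted line, and in related groups outside the list, below it. The desmosome group has 5 higher and 1 lower, the adherens junction group has 0 calls, and other epithelial transcription factors have 6 higher and 0 lower. Over all tested genes, 10.5% were called higher and 13.9% lower.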

How the data were processed

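RNA-seq of A549 cells was deposited by the authors as 1 table of estimated counts per gene symbol, all whole numbers, so rounding changed nothing. The submitters' processing notes name HISAT2 2.2.1, StringTie 2.2.1, DESeq2 and hg38, with no roles. Annotation and strand setting are not given there. Control (2 libraries) was compared with OE_CBX7 (2 libraries) in edgeR 4.0.16 (filterByExpr, TMM, glmQLFit, glmQLFTest, no covariates), with Benjamini-Hochberg adjustment over 17271 tested genes and a threshold of 0.05. CPM uses the TMM-scaled total of tested genes. Intervals are unadjusted, at 95%. The script was tested on simulated counts. Alternatives were DESeq2 size factors, library totals, no count filter, a mean count of 50 or more, DESeq2 1.42.0, limma-voom (limma 3.58.1), a replicate block and leaving out each library. The members and lists were chosen with earlier results of these data known. All 43 members are given, and of genes outside them the called ones of each list with the smallest p, at most 3 a list. CDKN2A, MTAP, KRT8, NKX2-1, CEBPA, TFCP2L1, PLEKHA7, MAGI1 and DLG1 were named after their values were seen. Promoters and positions are from RefSeq (GRCh38.p14) and exon lengths from GENCODE 29.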

Additional observations from a re-analysis of the deposited data

How the results depend on the processing

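The members called were 14 with DESeq2 size factors, with DESeq2 and with limma-voom, 16 with library totals, 15 without a count filter and 18 with a mean count of 50 or more, where 5 members were lower. Over all tested genes the share called moved as well, from 24.4% to 26.2% with library totals, 19% without a count filter and 33.2% with a mean count of 50 or more. Leaving out 1 library gave 12 to 17 members called (9 to 13 higher, 2 to 4 lower), 3 to 5 tight junction members higher, 1 to 3 lower, and 0 to 1 adherens junction members higher. CLDN1, CLDN2, TJP3, DSP, DSG2, JUP, PPL, EVPL, ELF3 and LLGL2 kept their calls in all 11 alternatives. Over all genes, leaving out 1 library gave 2729 to 3924 calls, 1021 to 1790 of them higher, with the lowest counts without OE_CBX7 1. Signs turned for genes that were not called: with library totals CTNNA1 (0.013) and PKP4 (0.055), and on leaving out single libraries CDH1 (-0.12 to 0.41), CLDN4 (-0.51 to 0.24), CLDN7 (-0.25 to 1.41), MARVELD3 (-0.47 to 8.07), PKP4 (-0.14 to 0.12), ESRP2 (-0.85 to 0.17) and OVOL2 (-0.54 to 0.30). The cause was not tested. Both groups carry replicate numbers 1 and 2, but the replicate differences of the groups correlated only at 0.108 over 17271 genes, and 2 pairs do not establish a pairing. With the numbers as a replicate block, 15 members were called (12 higher and 3 lower) and 4603 genes in all. Low counts limit CDH3, EPCAM, CLDN7, MARVELD3, DSC3, ESRP2, OVOL2, ST14 and SPINT1, whose intervals are wide.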
